A study of Homo sapiens with 6 samples.

Results

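Metallothioneins, the metal-responsive transcription factor gene MTF1 and the zinc exporter gene SLC30A1 were followed in HT29 cells exposed to YM155. The 7 genes were taken by symbol from the 26255 rows of the expression files, and all 7 had a row: MT2A, MT1E, MT1X, MT1F, MT1G, MTF1 and SLC30A1. HT29 is an established human colorectal adenocarcinoma line, and YM155 (sepantronium) is a compound known as an inhibitor of survivin expression. Cells received YM155 for 24 h, or DMSO, the solvent, as the control, with 3 libraries in each group. The labels give no dose and no genotype other than that of the line, and they do not say whether the triplicates were separate cultures, so p-values measure the spread between these libraries, which may be technical.

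Metallothioneins are very small cysteine-rich proteins that bind zinc, copper and cadmium through thiolate clusters and that also react with oxidants. In humans their genes lie side by side on chromosome 16. When free zinc rises in the cell, MTF1 binds zinc through its zinc fingers and activates genes that carry metal response elements (MREs), among them the metallothioneins and SLC30A1, whose product ZnT1 exports zinc across the plasma membrane. Oxidants and electrophiles can release zinc from metallothionein, so the same genes also respond to redox stress. In intestinal epithelium these genes take part in the handling of dietary zinc.

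Levels are given in FPKM, fragments per kilobase of transcript and per unit of sequencing depth, as the authors deposited them. The FPKM of all rows summed to 684616 ± 9919 per YM155 library and 547222 ± 13938 per DMSO library (SD, n = 3). The files give no read totals, but the steps between low values put 1 read at a worth of 1.52 to 1.78 in the YM155 libraries and 0.997 to 1.11 in DMSO replicates 2 and 3, relative to DMSO replicate 1. The same low level therefore stood for fewer reads under YM155. The inverse of this worth is called depth below, and it need not match the total reads of a library. Between libraries of a group, Pearson's r across genes was 0.992 to 0.994, with genes not counted as replicates. Of 11 colon epithelium markers, 8 had at least 1 FPKM in both groups, and of 10 markers of leukocytes, fibroblasts and endothelium 9 were under 1 FPKM in both. The exception was CD68, which also marks lysosomes, at 82.9 ± 4.51 FPKM with YM155 and 4.85 ± 0.921 FPKM with DMSO (SD, n = 3). The summed level of the colon markers was 9292 to 10162 FPKM in YM155 libraries and 5764 to 6047 FPKM in DMSO libraries, and that of the other markers 79.2 to 88.0 FPKM and 4.23 to 6.10 FPKM in YM155 and DMSO libraries, nearly all of it CD68. Of the 10 tested colon markers 7 were called higher and 2 lower, among them CDH17 and CDX2, which passed the filter on low values only through the YM155 and only through the DMSO libraries, so that their directions were built in. Without any 1 DMSO library 1 colon marker was called lower. Of 7 housekeeping genes 3 rose and 1 fell (1 higher and 5 lower under upper-quartile and under sum scaling). The largest change among them was that of the actin gene ACTB, with a log2 fold change of 1.63. It had 2506 ± 47.9 FPKM with YM155 and 812 ± 47.5 FPKM with DMSO (SD, n = 3). For both lists the shares over all tested genes were 43.6% higher and 41.0% lower. The part of these differences in the results below was not tested.

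The RefSeq promoter table (GRCh38.p14, 250 bases before to 50 after each start) held 4 of the 7 genes, MT2A, MT1X, SLC30A1 and MTF1. Below, the windows of MT2A (chr16:56608334-56608633, plus strand), MT1X (chr16:56682220-56682519, plus strand) and SLC30A1 (chr1:211579112-211579411, minus strand) are printed because their transcripts rose most among these 4. The window of MT1H (chr16:56669564-56669863, plus strand) is printed as that of a metallothionein gene with almost no transcript in these cells. Capitals mark matches to the MRE, searched as TGCACNC or TGCGCNC on both strands.
MT2A: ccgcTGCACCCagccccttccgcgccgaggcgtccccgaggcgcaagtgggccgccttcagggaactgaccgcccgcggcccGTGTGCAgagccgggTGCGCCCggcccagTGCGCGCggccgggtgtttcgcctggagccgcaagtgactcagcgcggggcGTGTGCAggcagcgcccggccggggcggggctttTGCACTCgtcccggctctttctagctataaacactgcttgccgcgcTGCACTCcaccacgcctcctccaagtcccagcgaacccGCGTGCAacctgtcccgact
MT1X: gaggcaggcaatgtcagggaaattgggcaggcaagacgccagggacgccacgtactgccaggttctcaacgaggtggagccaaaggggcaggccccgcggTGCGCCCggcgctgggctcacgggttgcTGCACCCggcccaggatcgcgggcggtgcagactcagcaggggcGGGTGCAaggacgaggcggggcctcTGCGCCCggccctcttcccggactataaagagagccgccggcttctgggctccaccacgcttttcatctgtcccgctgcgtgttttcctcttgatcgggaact
SLC30A1: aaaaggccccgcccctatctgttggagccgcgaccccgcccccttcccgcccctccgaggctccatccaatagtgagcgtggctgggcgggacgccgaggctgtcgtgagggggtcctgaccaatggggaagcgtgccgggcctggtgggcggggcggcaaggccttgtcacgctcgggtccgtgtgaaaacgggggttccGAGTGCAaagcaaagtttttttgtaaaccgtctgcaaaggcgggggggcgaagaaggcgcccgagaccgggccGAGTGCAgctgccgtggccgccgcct
MT1H: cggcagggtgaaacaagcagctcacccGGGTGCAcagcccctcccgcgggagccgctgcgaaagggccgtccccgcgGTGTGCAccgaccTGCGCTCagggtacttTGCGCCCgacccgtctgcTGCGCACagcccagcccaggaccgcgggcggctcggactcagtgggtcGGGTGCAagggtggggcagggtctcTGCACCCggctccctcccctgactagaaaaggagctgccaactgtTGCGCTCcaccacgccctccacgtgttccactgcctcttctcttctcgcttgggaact
The window of MT2A held 8 matches, that of MT1X 4, that of SLC30A1 2 and that of MTF1 0. MT1H and MT1B, neighbours with almost no transcript here, held 8 and 3. Of 35116 promoter windows of the same length, 29.6% held at least 1 match, 8.6% at least 2, 0.601% at least 4 and 0.0199% at least 8. The core of the antioxidant response element, searched as TGACNNNGC on both strands, had 1 match each in MT2A, MT1X, SLC30A1 and MT1B and 0 in MT1H and MTF1, against 13.3% of all windows with at least 1. In MT2A that match overlapped a match to the AP-1 motif TGACTCA, which 4.95% of all windows held. A match is a description of letters and shows no binding.

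**Figure D1:**
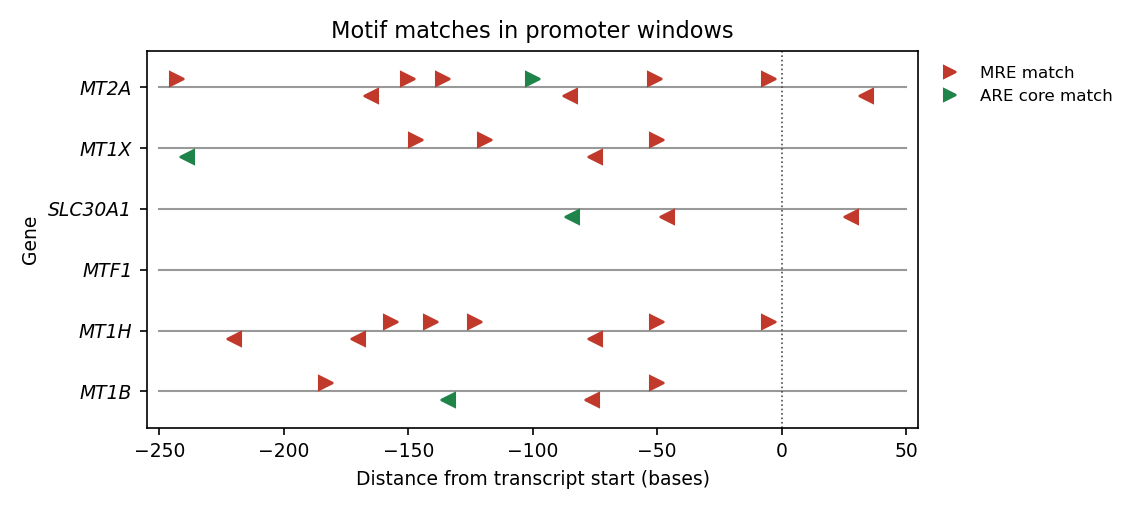
Matches in 6 promoter windows (rows) by distance from the transcript start in bases; red triangles are MRE matches and green triangles antioxidant response element core matches, pointing right for the plus and left for the minus orientation of the motif. MT2A and MT1H carry 8 MRE matches each and MTF1 none of either motif.

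The comparison of YM155 with DMSO asked which messenger RNAs differed after 24 h of the compound. All 7 genes rose, which is set against 43.6% of the 12035 tested genes that were called higher and 41.0% that were called lower, 84.7% together (limma on log2(FPKM + 1), Benjamini-Hochberg adjusted p under 0.05 over all tested genes). Their median log2 fold change was 2.77, beside 0.02 for all tested genes. Tested genes had at least 1 FPKM in at least 3 of 6 libraries, and MT1G met this only through its YM155 libraries, so its being higher was built into its passing. The groups did not overlap for any of the 7, as for the 44.4% of tested genes whose YM155 libraries all lay above the DMSO libraries and the 41.5% for which they lay below. A log2 fold change of at least 1 was seen for MT2A, MT1X, SLC30A1, MT1E, MT1G and MTF1, and for 15.9% of tested genes. By size MT2A was in place 11 and MT1X in place 16 from the top of 12035.

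MT2A, the metallothionein that is usually most abundant in human cells, stood at 175, 268 and 185 FPKM in the YM155 libraries, against 10.8, 5.89 and 7.34 FPKM in the DMSO libraries. The lowest YM155 library was far above the highest DMSO library, and the libraries of a group differed visibly in both. The means were 209 ± 50.8 FPKM with YM155 and 8.01 ± 2.53 FPKM with DMSO (SD, n = 3), a ratio of 26.1 (log2 fold change 4.56, SE 0.21, limma adjusted p = 6.6e-08). In bulk RNA, more transcript per cell and more cells with transcript cannot be told apart. MT1X, a metal-inducible isoform, had 53.3, 89.5 and 69.4 FPKM with YM155 and 1.99, 2.71 and 2.02 FPKM with DMSO. Relative to the mean, the SD between libraries was 25.6% with YM155 and 18.1% with DMSO. The means were 70.7 ± 18.1 and 2.24 ± 0.406 FPKM in YM155 and DMSO libraries (SD, n = 3). The ratio was 31.6 (log2 fold change 4.44, SE 0.17, limma adjusted p = 2.2e-08).

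MT1E was the metallothionein with the highest level in DMSO. It reached 136, 205 and 159 FPKM in the YM155 libraries, against 26.8, 22.6 and 20.8 FPKM in the DMSO libraries. All YM155 libraries were above all DMSO libraries, but the distance was smaller than for MT2A and MT1X. The ratio of means was 7.13 (167 ± 35.2 FPKM with YM155 and 23.4 ± 3.05 FPKM with DMSO, SD, n = 3; log2 fold change 2.77, SE 0.14, limma adjusted p = 1.4e-07).

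MT1F and MT1G, isoforms of the same cluster, were scarce. MT1F had 3.28, 3.04 and 3.22 FPKM with YM155 and 2.15, 1.53 and 0.683 FPKM with DMSO. Its YM155 libraries were close together and its DMSO libraries were not. The log2 fold change was 0.81 (SE 0.19, limma adjusted p = 0.0033), the smallest of the 7. The steps of its values corresponded to 12, 13 and 12 reads with YM155 and 14, 10 and 4 reads with DMSO, each within 0.003 read of a whole number after allowing for depth. Together the DMSO libraries thus held 28 reads and the YM155 libraries 37, with greater depth in DMSO by the worth of a read. Scaled to depth, the ratio was 2.14 with a 95% interval of 1.28 to 3.63 (exact, for counting error only).

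MT1G had 1.96, 6.14 and 3.52 FPKM with YM155, against 0.183, 0.182 and 0 FPKM with DMSO. These values corresponded to 6, 22 and 11 reads with YM155 and to 1, 1 and 0 reads with DMSO. The transcript was thus at the limit of detection without the compound and unequal between the libraries with it. The log2 fold change was 2.03 (SE 0.27, limma adjusted p = 7.3e-05) and 4.17 with a pseudocount of 0.1. The depth-scaled ratio of reads was 31.6, with a 95% interval of 8.19 to 270.3 (exact, for counting error only), so its size was poorly determined. Whole reads were not recovered within 0.02 read for the other 5 genes. The search covered a set range of steps and kept the largest that fitted. The reads of MT1F and MT1G, on which their intervals rest, are thus the fewest that fitted. Genes with smaller steps or many reads could be missed.

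**Figure D2:**
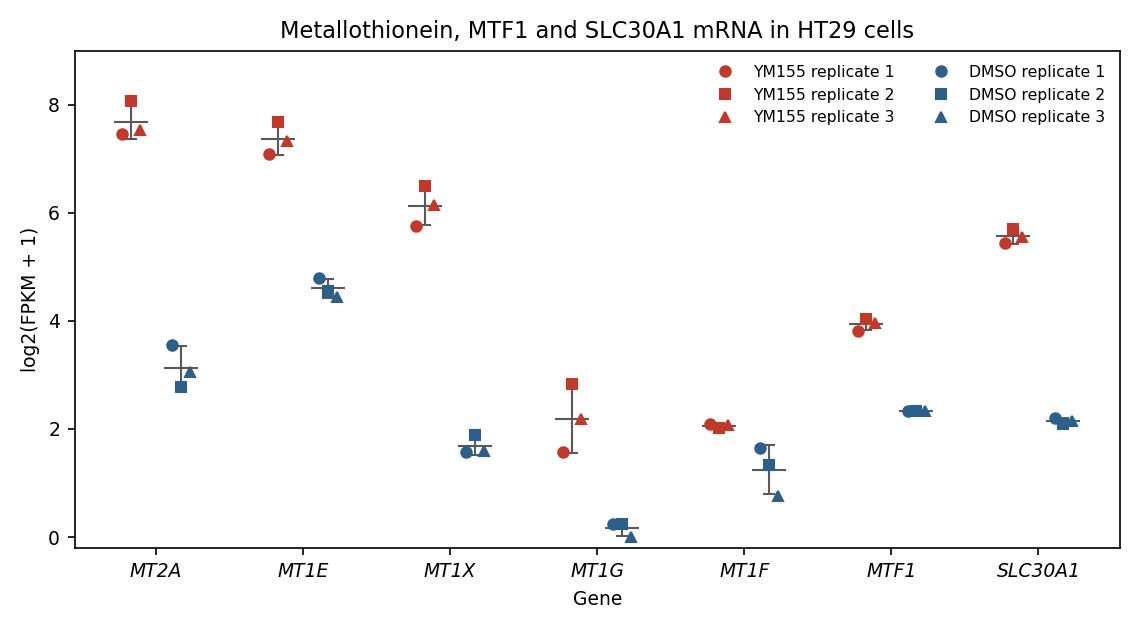
Level of each gene as log2(FPKM + 1) in the 3 YM155 (red) and 3 DMSO (blue) libraries, with symbols for replicates and grey bars for the mean ± SD of the log2 values. No gene has overlapping groups, MT1F has the smallest distance between them, and YM155 replicate 2 is the highest library for every gene but MT1F.

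The summed level of the 5 metallothioneins was 369, 571 and 421 FPKM in the YM155 libraries, against 41.9, 32.9 and 30.9 FPKM in the DMSO libraries. The ratio of the means was 12.9 (454 ± 105 FPKM with YM155 and 35.2 ± 5.87 FPKM with DMSO, SD, n = 3). The makeup of the family differed too. MT2A held 46.1 ± 1.77% of the sum with YM155 and 22.5 ± 4.10% with DMSO, and MT1X held 15.5 ± 1.04% and 6.52 ± 1.74% in YM155 and DMSO libraries (SD, n = 3). MT1E, in contrast, held 36.8 ± 0.97% with YM155 and 66.7 ± 2.48% with DMSO. MT1F made up 0.728 ± 0.181% with YM155 and 3.99 ± 1.56% with DMSO, and MT1G stayed near or under 1% in each library.

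The level of MT2A relative to MT1E was 1.29, 1.31 and 1.16 in the YM155 libraries and 0.404, 0.261 and 0.352 in the DMSO libraries. MT2A was thus above MT1E in each YM155 library and below it in each DMSO library. An exact permutation test of the log ratio gave p = 0.10 (two-sided, n = 3 per group), the smallest value that 3 against 3 libraries allow. MT1X relative to MT1E was 0.393, 0.436 and 0.436 with YM155 and 0.0745, 0.120 and 0.0971 with DMSO, again without overlap (exact permutation p = 0.10, n = 3 per group). MT1X relative to MT2A was 0.305, 0.334 and 0.375 with YM155 and 0.185, 0.460 and 0.275 with DMSO. These ranges overlapped (exact permutation p = 0.70, n = 3 per group), and 3 libraries a group leave room for a difference between them.

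**Figure D3:**
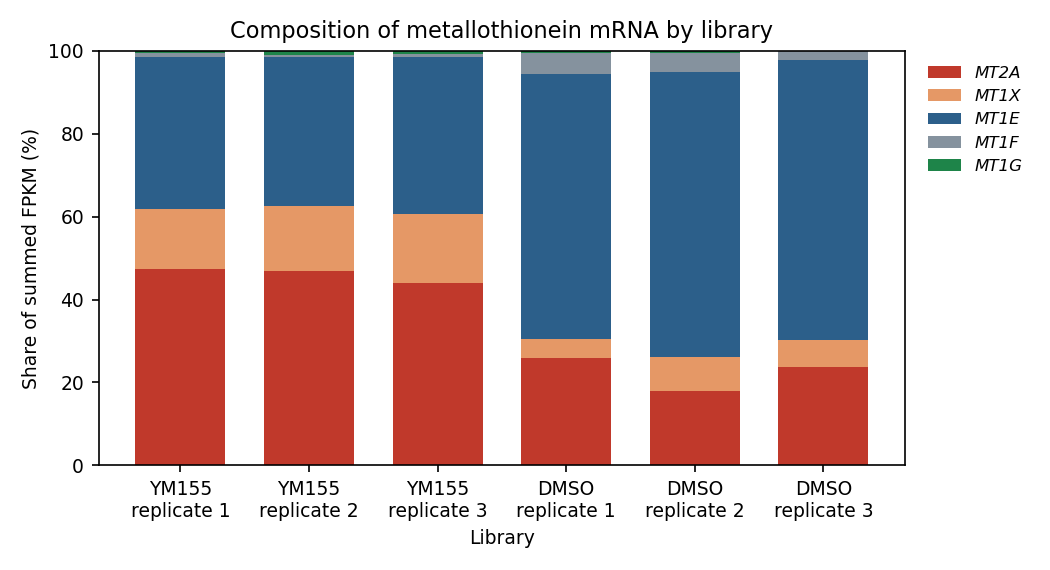
Share of each metallothionein in the summed FPKM of the 5 genes, in percent, for each library. MT1E makes up 63.9% to 68.7% in the DMSO libraries and 35.9% to 37.8% in the YM155 libraries, where MT2A holds 44.1% to 47.4%.

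The order of levels therefore differed between the groups. With YM155 it was MT2A, MT1E, MT1X, SLC30A1, MTF1, MT1G and MT1F, and the ranges of MT2A and MT1E and those of MT1G and MT1F overlapped. With DMSO it was MT1E, MT2A, MTF1, SLC30A1, MT1X, MT1F and MT1G, and of the neighbours in that order the ranges of MT1X and MT1F overlapped. Both orders compare FPKM, which is scaled by transcript length.

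The 11 other metallothionein rows showed almost no transcript. MT1B, MT1M, MT3, MT4, MT1HL1 and the pseudogenes MT1L and MT1IP were listed at 0 in all 6 libraries. MT1A was listed at 0.337, 0 and 0.330 FPKM with YM155 and at 0, 0.188 and 0 FPKM with DMSO. Scaled by the worth of a read, its 3 values above 0 were 0.189 each, so they stood for equal numbers of reads. MT1H had a value above 0 only in YM155 replicate 2 (0.286 FPKM), the pseudogene MT1JP only in YM155 replicate 3 (0.311 FPKM), and the pseudogene MT1DP only in DMSO replicates 1 and 3 (0.226 and 0.251 FPKM). None of the 11 reached the level needed for testing. Along chromosome 16, MT2A and MT1E lie to either side of MT1L, MT1F and MT1G lie next to each other, and MT1X lies at the end of the cluster beyond MT1H and MT1IP. Genes with and without appreciable transcript were thus interleaved, as the levels in cluster order show. MT1H, with almost none, carried as many MRE matches as MT2A in the windows printed above.

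**Figure D4:**
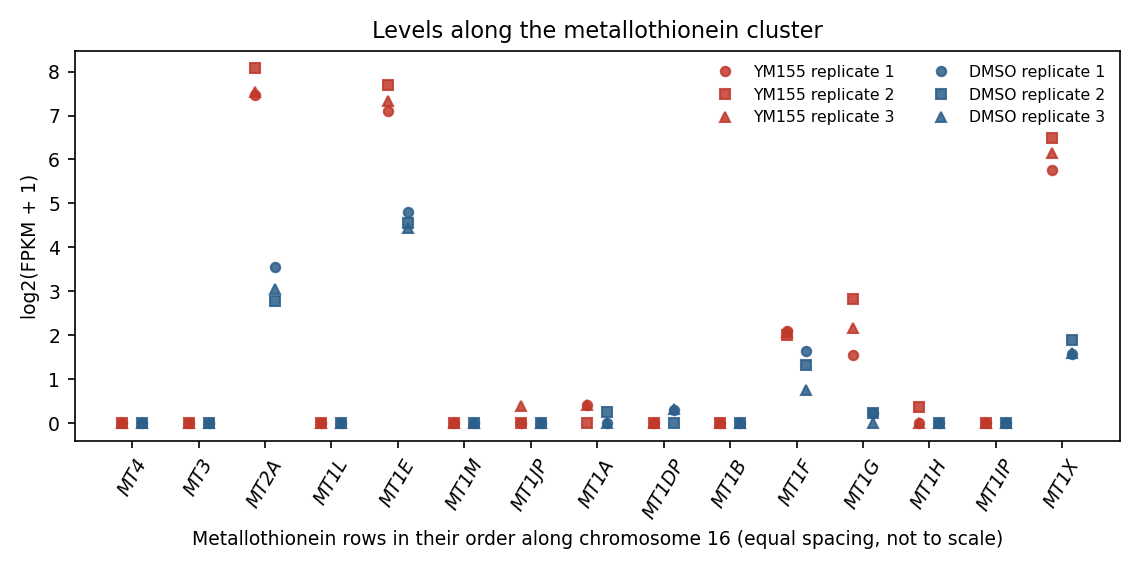
Level as log2(FPKM + 1) of 15 metallothionein rows in their order along chromosome 16, with 3 YM155 (red) and 3 DMSO (blue) libraries each. MT2A, MT1E, MT1X, MT1G and MT1F stand above the others, which lie at or near 0 in both groups.

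Metallothionein genes are similar in sequence, and reads can be shared between them. Among spliced transcripts of 21 metallothionein genes and pseudogenes (GENCODE release 29), 16.5% of the distinct stretches of 50 bases in MT1G also occurred in another of these genes. This share was 7.92% for MT1X, 7.1% for MT1E, 3.02% for MT2A and 2.4% for MT1F. At 75 bases it was 5.73% for MT1G, 3.29% for MT1X, 1.42% for MT1E and 0 for MT2A and MT1F, and at 100 bases it was 0 for all 5. The read length and the treatment of reads with several matches were not given in the sources used here. Most distinct stretches of 50 bases, pooled over the transcripts of a gene, thus did not occur in another of these genes. MT1G had the largest shared part. Only identical stretches were counted, so near-identical ones that can also share reads were missed. Genes outside the family were not searched, and the shares are not shares of reads.

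The 3 abundant metallothioneins varied more between YM155 libraries than most abundant genes. Their coefficients of variation were 24.3% for MT2A, 25.6% for MT1X and 21.1% for MT1E, against a median of 4.05% among 1881 tested genes with a YM155 mean of at least 50 FPKM. In 14, 13 and 15 of those genes it was higher. YM155 replicate 2 was the highest of its group for MT2A, MT1X, MT1E, MT1G, MTF1 and SLC30A1, and for 33.0% of all tested genes. Replicate 1 was the lowest for the same 6 genes. By the worth of a read, replicate 2 also had the greatest depth of the YM155 libraries. It was 0.656 of DMSO replicate 1, against 0.561 and 0.572 in replicates 1 and 3. The part of depth in this spread was not tested. Without replicate 2 the log2 fold changes were 4.37 for MT2A, 4.26 for MT1X and 2.61 for MT1E, and the summed level was 11.2-fold higher.

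MTF1 encodes a zinc sensor known to activate metallothionein genes, and its activity was not measured here. MTF1 had 13.03, 15.3 and 14.6 FPKM in the YM155 libraries, against 4.04, 4.05 and 4.01 FPKM in the DMSO libraries. The DMSO values were almost identical and the groups far apart (ratio 3.55, log2 fold change 1.60, SE 0.07, limma adjusted p = 5.3e-08). Among 7 other regulators of metallothionein transcription that were listed, 4 rose, 1 fell and 1 did not pass, and the seventh was not tested. The median over the 7 tested regulators, MTF1 included, was 1.13, beside 0.02 for all tested genes, of which 43.6% were called higher and 41.0% lower. NFE2L2, which encodes the oxidative stress factor NRF2, rose to 118 ± 7.53 FPKM with YM155, against 43.1 ± 1.67 FPKM with DMSO (SD, n = 3; log2 fold change 1.43). The log2 fold changes of STAT3, a cytokine-activated factor, and SP1, which binds GC boxes, were 1.36 and 1.13. The histone acetyltransferase gene EP300 rose (0.70) and the E-box factor gene USF1 fell (-0.55), both named after their values were seen. USF2, an E-box factor, did not pass at 49.4 ± 0.981 FPKM with YM155 and 51.7 ± 1.77 FPKM with DMSO (SD, n = 3), but it was called lower under upper-quartile, sum and quantile scaling (log2 fold change -0.41, -0.38 and -0.49). NR3C1, the glucocorticoid receptor through which steroids induce MT2A, was listed at 0 in all YM155 libraries and in DMSO replicates 1 and 3, and at 0.0188 FPKM in DMSO replicate 2.

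SLC30A1, the gene of the plasma membrane exporter ZnT1, had 42.2, 51.1 and 46.2 FPKM with YM155 and 3.63, 3.26 and 3.42 FPKM with DMSO. The libraries of each group were close together compared with the distance between the groups. The ratio was 13.5 (46.5 ± 4.42 FPKM with YM155 and 3.44 ± 0.188 FPKM with DMSO, SD, n = 3; log2 fold change 3.42, SE 0.08, limma adjusted p = 1.0e-09). Of 10 exporter genes of the SLC30 family, 5 were tested, of which 2 rose, 2 fell and 1 did not pass, with a median of 0.11 beside 0.02 for all genes. Calls over all tested genes were 43.6% higher and 41.0% lower. The other member that rose, SLC30A7, a transporter of the Golgi, had a log2 fold change of 0.47, and SLC30A1 was the only one higher under upper-quartile and sum scaling. SLC30A9, linked to mitochondrial zinc, and SLC30A6 of the secretory pathway fell (log2 fold change -0.82 and -0.38). These 3 genes were named after their values were seen. SLC30A5, whose product ZnT5 pairs with that of SLC30A6 in the early secretory pathway, did not pass at 12.8 ± 1.14 FPKM with YM155 and 11.7 ± 0.836 FPKM with DMSO (SD, n = 3), but was called lower under upper-quartile scaling (log2 fold change -0.21, limma adjusted p = 0.027).

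Of 14 importer genes of the SLC39 (ZIP) family, 12 were tested, of which 2 rose, 6 fell and 4 did not pass (median log2 fold change -0.15, beside 0.02 for all genes). Beside these counts, 43.6% of all tested genes were called higher and 41.0% lower. The second that rose was SLC39A3 (log2 fold change 0.21), named after its values were seen. Only 1 importer gene, SLC39A14, was called higher without DMSO replicate 1, without DMSO replicate 3 or without YM155 replicate 2. Under both upper-quartile and sum scaling the counts were 1 higher and 10 lower. SLC39A10, a plasma membrane importer that MTF1 represses in mouse and zebrafish, had 4.2, 4.55 and 4.31 FPKM with YM155 and 14.3, 14.6 and 16.5 FPKM with DMSO. The groups were far apart, each with libraries close together (log2 fold change -1.59, SE 0.07, limma adjusted p = 5.5e-08). SLC39A8, an importer of zinc, manganese and cadmium, fell to 1.83 ± 0.114 FPKM with YM155, against 5.47 ± 0.541 FPKM with DMSO (SD, n = 3; log2 fold change -1.19). SLC39A14, a related importer that also carries iron and manganese, rose to 44.9 ± 2.71 FPKM with YM155, against 19.3 ± 0.444 FPKM with DMSO (SD, n = 3; log2 fold change 1.17). SLC39A4, the main importer of dietary zinc in the gut, did not pass at 34.96 ± 1.27 FPKM with YM155 and 35.1 ± 2.38 FPKM with DMSO (SD, n = 3), but was called lower under upper-quartile, sum and quantile scaling (log2 fold change -0.34, -0.32 and -0.39).

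**Figure D5:**
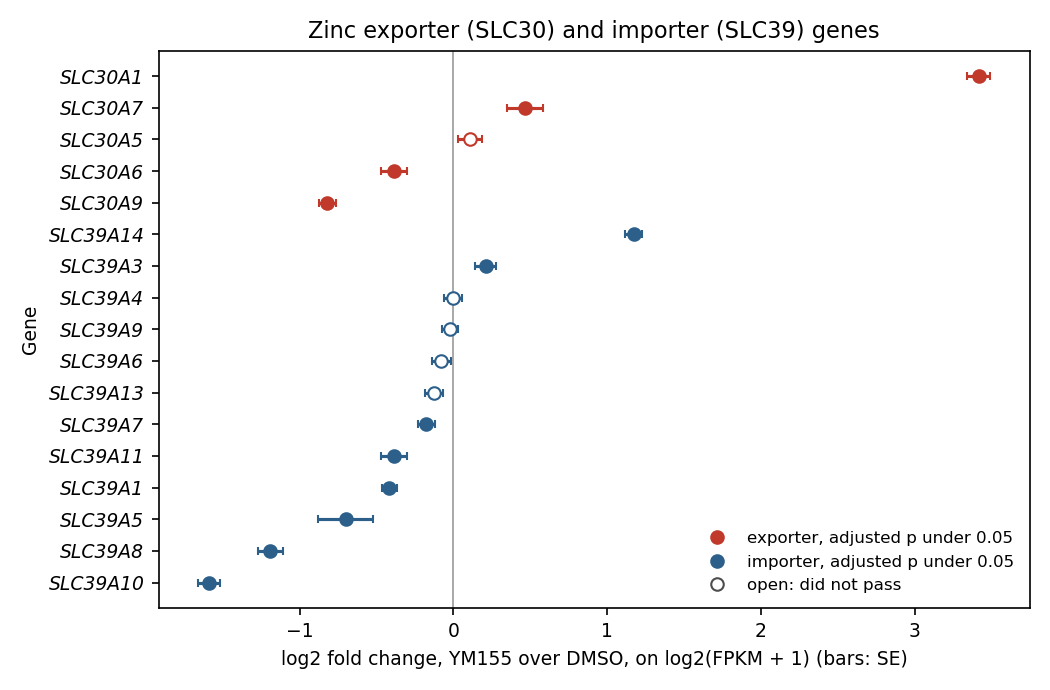
Log2 fold change of YM155 over DMSO with its SE for the 5 tested exporter (red) and 12 tested importer (blue) genes; filled points passed the threshold and open points did not. SLC30A1 stands furthest to the right at 3.42, and SLC39A10 furthest to the left at -1.59.

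Of 9 genes linked to MTF1 in humans or mice outside the metallothioneins, SLC30A1 and SLC39A10 among them, 5 rose and 4 fell (median log2 fold change 0.21). MTF1 activates SLC30A1 but represses SLC39A10 in mouse and zebrafish, so the count and median are no measure of MTF1 activity. For this list and the copper list below, the shares over all tested genes were 43.6% higher and 41.0% lower. GCLC, the catalytic subunit of glutathione synthesis and also an NRF2 target, rose to 380.3 ± 13.1 FPKM with YM155, against 18.4 ± 0.876 FPKM with DMSO (SD, n = 3; log2 fold change 4.30). NDRG1, a stress and hypoxia gene linked to MTF1 in mouse, had a log2 fold change of 1.75. CSRP1 (0.44) and, narrowly, the growth factor gene PGF (0.21, limma adjusted p = 0.047) were also called higher, while the iron exporter gene SLC40A1 (-0.83) and the selenoprotein genes C11orf31, now SELENOH (-0.62), and SEPW1 (-0.48) fell, all named after their values were seen. The count of 5 higher held with eBayes without trend and without YM155 replicate 2. It was 3 after upper-quartile scaling and 4 under every other alternative tried, among them leaving out any other library. Of 13 copper handling genes, 3 rose, 6 fell and 4 did not pass (median -0.18), with 1 higher and 10 lower under upper-quartile and under sum scaling. The other 2 that rose, COX17 and SCO2 of copper delivery to cytochrome oxidase, had log2 fold changes of 0.34 and 0.33 and were named after their values were seen. SLC31A1, the copper importer CTR1, rose to 26.8 ± 1.34 FPKM with YM155, against 9.38 ± 0.515 FPKM with DMSO (SD, n = 3; log2 fold change 1.42). SOD1, the copper- and zinc-dependent superoxide dismutase, did not pass at 137 ± 5.35 FPKM with YM155 and 132 ± 6.14 FPKM with DMSO (SD, n = 3), its log2 fold change being 0.05, but -0.30 and called lower once upper quartiles were equalised.

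Other branches of the response to heavy metals were read beside the metallothioneins. Of 13 such genes of the NRF2 and heat shock branches, 12 rose and 1 fell, with a median log2 fold change of 1.14. Over all tested genes 43.6% were called higher and 41.0% lower, with a median of 0.02. On the scale of log2(FPKM + 1), the log2 fold changes were largest for genes of the NRF2 branch. They were 4.61 for the sulfiredoxin gene SRXN1, 3.50 for the thioredoxin reductase gene TXNRD1, 3.17 for GCLM of glutathione synthesis and 2.26 for the cystine transporter gene SLC7A11. HSPB1, a small heat shock protein gene, was the 1 that fell (log2 fold change -1.13), named after its values were seen. HMOX1, the heme oxygenase gene, had 8.31 ± 1.73 FPKM with YM155 and 1.40 ± 0.133 FPKM with DMSO (SD, n = 3; log2 fold change 1.94). HSPA6, a strictly inducible HSP70 gene, had 2.22 ± 0.617 FPKM with YM155 and 0.125 ± 0.0431 FPKM with DMSO (SD, n = 3; log2 fold change 1.5). HSPA6 was tested only through its YM155 libraries. Its ratio of means, 17.8, was above those of TXNRD1 (11.5), GCLM (12.0) and SLC7A11 (5.43) and below that of SRXN1 (25.9). HSPA8, the constitutive member and the most abundant of the list, had a log2 fold change of 0.41, which was 0.06 and 0.08 and not called after upper-quartile and sum scaling and turned to -0.09 with quantile normalization.

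Of 8 genes that glucocorticoids induce in many tissues, 6 rose and 1 did not pass, with a median log2 fold change of 1.44 over the 7 tested. Among all tested genes 43.6% were called higher and 41.0% lower, and the median was 0.02. PER1, a clock gene, and ERRFI1, a feedback inhibitor of EGFR, had log2 fold changes of 2.84 and 2.62. KLF9, a Kruppel-like factor tested only through its YM155 libraries, SGK1, a kinase of ion transport, and DUSP1, a MAP kinase phosphatase, had 1.79, 1.44 and 1.15. FKBP5, a chaperone of steroid receptors, did not pass at 7.65 ± 0.280 FPKM with YM155 and 8.21 ± 0.427 FPKM with DMSO (SD, n = 3), but was called lower under upper-quartile, sum and quantile scaling (log2 fold change -0.40, -0.38 and -0.16). The receptor gene NR3C1 was at or near 0, as given above.

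Likeness was measured as the distance between profiles of log2(FPKM + 1) over the 6 libraries, each centred on its own DMSO mean. The genes nearest to MT2A were the antisense RNA UNC5B-AS1 (distance 0.56), FEM1C (0.64), a substrate receptor of an E3 ligase, the Notch ligand gene JAG1 (0.66), FAM25A (0.68) and SRXN1 (0.75). UNC5B-AS1 had 46.1, 54.1 and 42.3 FPKM with YM155 and 1.73, 1.07 and 0.551 FPKM with DMSO, and the level of an antisense RNA is uncertain because the use of strand in counting is not stated. FAM25A can share reads with near-identical copies. No other metallothionein was among these 5. The genes nearest to SLC30A1 were closer, led by OSBP2, an oxysterol-binding protein gene (distance 0.07), at 24.9, 29.2 and 25.7 FPKM with YM155 and 1.66, 1.49 and 1.54 FPKM with DMSO. It was followed by the trypsinogen gene PRSS3 (0.20), the protein kinase A inhibitor gene PKIB (0.21), CTH of cysteine synthesis (0.22) and TXNRD1 (0.22). YM155 replicate 2 was the highest library of its group for OSBP2, PRSS3, PKIB, CTH and TXNRD1, as it was for SLC30A1. The distance used these same library values, so choosing by it favoured genes with the same order of libraries.

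The split of all calls depended on how libraries were scaled, which bears on small differences. With the deposited values 51.5% of calls were higher, against 36.4% after upper-quartile scaling and 37.4% after scaling to a common sum, with shifts of -0.31 and -0.28 in the median over all genes (log2). The 7 genes were called higher under each of the scalings tried. After upper-quartile scaling their log2 fold changes lay between 0.58 for MT1F and 4.23 for MT2A.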

How the data were processed

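Messenger RNA of HT29 cells was sequenced from 6 libraries, 3 with YM155 and 3 with DMSO, grouped by the treatment label (the titles spell the compound YM115). A TruSeq Stranded mRNA kit was used, per the labels' protocols. The authors deposited FPKM values per gene symbol and library. The submitters' processing notes name Cufflinks 2.2.1, Cuffdiff, SAMtools 1.2, Bowtie2 2.3.5.1, TopHat2 2.1.1 and the build hg19. Settings, annotation, read totals and the use of strand were not given in the sources used here, so overlapping, antisense and near-identical genes are uncertain.

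Genes with at least 1 FPKM in at least 3 libraries were compared as log2(FPKM + 1) with limma 3.58.1 in R 4.3.3 (eBayes with trend, two-sided, Benjamini-Hochberg over all tested genes, threshold 0.05). The fit was run on simulated data with noise taken from the DMSO libraries. Few genes and no scarce ones were changed there, so that check does not cover data in which most genes differ. A fold change on the scale of log2(FPKM + 1) understates that of scarce transcripts. Ratios are of mean FPKM. The worth of 1 read was taken from the most frequent ratio of values under 0.3 FPKM between libraries. No pair of libraries held equal values above 0 for any gene, and none were merged. Promoters are from RefSeq GRCh38.p14 and were used apart from the hg19 values.

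The genes and lists were chosen with earlier results of these data known. Beside the 7 genes and the other metallothionein rows, list members were named when past the threshold with a log2 fold change of at least 1 in either direction (at most 6), with the most abundant that did not pass (or, where all passed, the most abundant), and 5 genes by likeness. Not every gene the rule took is printed. The conversion to reads was added after seeing the data.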

Additional observations from a re-analysis of the deposited data

How the results depend on the processing

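The 7 genes were called higher under each alternative that could fit them (pseudocount 0.1, no filter, 4 scalings, eBayes without trend, a replicate block, a threshold of 0.01, leaving out each library), with log2 fold changes between 0.57 and 1.21 for MT1F and between 4.23 and 4.77 for MT2A. MT1F and MT1G had no value with a mean of at least 5 FPKM, and MT1G none without any 1 of the YM155 libraries. With that mean filter 8575 genes were tested instead of 12035. Of them 2922 fell instead of 4940 and 4419 rose instead of 5251. The share of calls that were higher was then 60.2%, against 51.5% with the main filter. Leaving out 1 library gave 4887 to 5109 genes higher, 4150 to 4945 lower, 6 to 7 of the 7 genes higher, and a summed metallothionein ratio of 11.2 to 14.2. Same-numbered libraries did not deviate together (correlations of -0.07, -0.15 and -0.12). The labels do not say whether the numbers pair libraries, and small correlations of deviations from means of 3 libraries cannot exclude it. With the number as a replicate block 5147 genes rose, 4861 fell and all 7 genes were called.

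SLC30A5, SOD1, LGALS4 and SLC39A4, which did not pass, and HSPA8, which did, changed sign under other settings, and the cause was not tested. Upper-quartile, sum and quantile scaling gave SLC30A5 -0.21, -0.19 and -0.0811, SOD1 -0.30, -0.27 and -0.40 and the galectin gene LGALS4 -0.31, -0.29 and -0.37. LGALS4 was also at -0.0024 with median-of-ratios scaling and -0.0343 without YM155 replicate 1 (up to 0.0798 without another library), and HSPA8 at -0.0923 with quantile normalization. Leaving out a library moved SLC39A4 between -0.059 and 0.0329, with 0.0132, 0.0329, 0.0156 and 0.0043 without DMSO replicates 1 and 2 and YM155 replicates 2 and 3. Depth limits MT1F, MT1G and the other metallothionein rows.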
